A study of Mus musculus with 12 samples.

Results

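Thin filament genes were described in left atrial (LA) RNA from mice with and without Notch activation in cardiomyocytes (CMs). The 10 genes, of 54658 gene names in the count table, were taken by name: the sarcomeric actins *Actc1* and *Acta1*, the troponin T genes *Tnnt1* and *Tnnt2*, the troponin I genes *Tnni1* and *Tnni3*, the troponin C gene *Tnnc1*, the tropomyosins *Tpm1* and *Tpm2*, and the leiomodin *Lmod2*. All 10 were in the table, and all 10 passed the expression filter of more than 1 CPM (counts scaled to sequencing depth) in 6 or more libraries. The libraries came from 6 iNICD mice, which carry *αMHC-rtTA* and *tetO_NICD* and so express the Notch1 intracellular domain in CMs when doxycycline is given, and from 6 littermate controls that carry *αMHC-rtTA* alone. Both genotypes were on a mixed background, were 2 to 3 months old, and received doxycycline chow for 3 weeks with no washout; the controls, like the iNICD mice, thus carried the transactivator and took the drug. The controls were 4 females and 2 males, the iNICD mice 3 of each sex, and every LA gave a library of its own. Which of these genes differ with Notch activation, and whether fetal or skeletal isoforms gain on the adult cardiac ones, are the questions the comparison addresses.

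The thin filament of striated muscle is a polymer of actin along which tropomyosin lies, with a troponin complex at regular intervals. Troponin C binds calcium, troponin I holds the filament in its inactive state, and troponin T ties both to tropomyosin, so that a calcium transient moves tropomyosin and lets myosin attach. Leiomodins and tropomodulins act at the pointed end of the filament, where leiomodins promote elongation and tropomodulins cap it. In the adult mouse heart the main isoforms are those of *Actc1*, *Tnnt2*, *Tnni3*, *Tnnc1* and *Tpm1*. *Tnni1* is the troponin I of the fetal heart and of slow skeletal muscle, *Acta1* is skeletal actin and a marker of the fetal program in hypertrophy, *Tnnt1* is slow skeletal troponin T, and *Tpm2* is β-tropomyosin, which is more abundant in the fetal than in the adult rodent heart.

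The promoters of 3 members are shown, those of both actins because their levels stood high in the same control libraries, and that of *Tnnt2* because it was the member that differed between the genotypes. Each run is the 250 bases before the RefSeq transcription start (the first of 2 for *Tnnt2*) on GRCm38.p6, read 5′ to 3′ on the gene's strand. Capitals mark the CArG box, to which serum response factor binds, in the actin promoters, and the GATA site and the MCAT element, to which TEAD factors bind, in that of *Tnnt2*. The runs lie at chr2:114052876-114053125 (minus strand), chr8:123894776-123895025 (minus strand) and chr1:135836084-135836333 (plus strand).
*Actc1*: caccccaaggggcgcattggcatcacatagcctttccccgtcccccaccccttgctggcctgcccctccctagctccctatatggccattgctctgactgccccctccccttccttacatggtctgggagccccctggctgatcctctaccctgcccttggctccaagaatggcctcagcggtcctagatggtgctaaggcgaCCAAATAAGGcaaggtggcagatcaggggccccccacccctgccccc
*Acta1*: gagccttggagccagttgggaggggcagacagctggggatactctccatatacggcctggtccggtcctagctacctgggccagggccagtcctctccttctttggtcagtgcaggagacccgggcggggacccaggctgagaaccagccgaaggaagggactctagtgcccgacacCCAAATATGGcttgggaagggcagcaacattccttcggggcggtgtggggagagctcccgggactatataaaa
*Tnnt2*: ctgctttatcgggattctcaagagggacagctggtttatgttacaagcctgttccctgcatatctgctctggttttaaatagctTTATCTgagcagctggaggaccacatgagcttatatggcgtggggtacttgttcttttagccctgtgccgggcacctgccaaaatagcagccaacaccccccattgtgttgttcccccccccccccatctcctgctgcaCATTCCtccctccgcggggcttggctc
The *Actc1* CArG box lay at -47 to -38 from the start and that of *Acta1* at -73 to -64. Over the windows of 300 bases around 32851 RefSeq starts, from 250 before to 50 after, 1.63% held a CArG box, and the other 8 members held none there. The MCAT element (CATTCC, either strand) was in 14.7% of all windows and in those of *Acta1*, *Tnnt2*, *Tnnc1* and *Tpm1*, and the GATA site (AGATAA, either strand) was in 11.2% and, among members, in that of *Tnnt2*. The letters GTGGGAA, bound by the Notch effector RBPJ, were in 6.38% of windows and in both overlapping windows of *Tnni1*, and the TBX5 site AGGTGTGA was in 1.28% and in that of *Tnni3*. A MEF2 site was in 3.19% of all windows and in none of the members' windows. These matches are of letters only.

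Between 21555678 and 26902478 reads per control library and between 21432632 and 27182038 per iNICD library were counted on genes, and the 10 members took 2.65% to 3.66% of them in controls and 2.17% to 2.89% in iNICD libraries. *Notch1*, the source of the transgene's coding sequence, had 2335 to 3311 counts in controls and 71187 to 107667 in iNICD libraries, as labelled. The atrial CM markers *Myl7* (4028 to 5107 normalized CPM in controls) and *Sln* (1011 to 1531) were abundant. Of the ventricular markers, *Irx4* had 0 counts in every library and *Myl2* had 5 to 73. The full ventricular list of 5 also holds *Myl3*, *Myh7* and *Hey2*. It summed to 23.7 to 2159 normalized CPM in controls and 19.4 to 2234 in iNICD libraries, so ventricular markers were not near 0 in every library. Control 5 stood apart: there, 13.2% of tested genes differed 2-fold or more from the mean of its group mates, a share of 1.38% to 3.12% in each other control. The share of counts on mitochondrial genes was 7.52% to 9.59% in controls and 9.60% to 11.2% in iNICD libraries, and leaving these genes out changed no call among the members.

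Per length, *Actc1* was the most abundant member in the control LA at 7123 ± 3625 CPM per kilobase (mean ± SD, n = 6). The level of *Tnni3* followed at 1648 ± 114, then *Tnnc1* at 1237 ± 250, *Tnnt2* at 1197 ± 119 and *Tpm1* at 527 ± 164 CPM per kilobase. *Lmod2*, at 250.5 ± 63.9, and *Tpm2*, at 231.5 ± 91.4, came next. The skeletal and fetal isoforms other than *Tpm2* were more than an order of magnitude lower per length, with 3.82 ± 0.265 for *Tnnt1*, 3.24 ± 4.46 for *Acta1* and 2.86 ± 1.21 for *Tnni1*. Within this order *Tnnc1* and *Tnnt2*, *Lmod2* and *Tpm2*, and the 3 lowest genes did not differ from each other beyond their spread over the controls. Adult cardiac isoforms thus led in the control LA, and of the other isoforms only β-tropomyosin was more than a trace.

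Of the 10 members, 1 had a lower level with Notch activation at an adjusted p under 0.05, 0 had a higher one, and 9 did not pass (quasi-likelihood test of edgeR, Benjamini-Hochberg adjusted over 13541 tested genes). Among all tested genes 1.34% were called lower, 2.78% higher and 4.12% either way. At an unadjusted p under 0.05, 3 members were lower and 0 higher, beside 8.09% and 9.32% of all tested genes. DESeq2 called 1 member lower and 0 higher, beside 3.28% and 4.54% of all tested genes, and the exact test of edgeR likewise 1 and 0, beside 2.06% and 3.63%. The median log2 fold change of the members was -0.28, with 4 of 10 above 0, and that of all tested genes was -0.0061. In the plot of fold changes the intervals of *Tnnt2*, *Tnni3* and *Tpm2* lie wholly below 0, and those of the other 7 members reach across it.

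**Figure D1:**
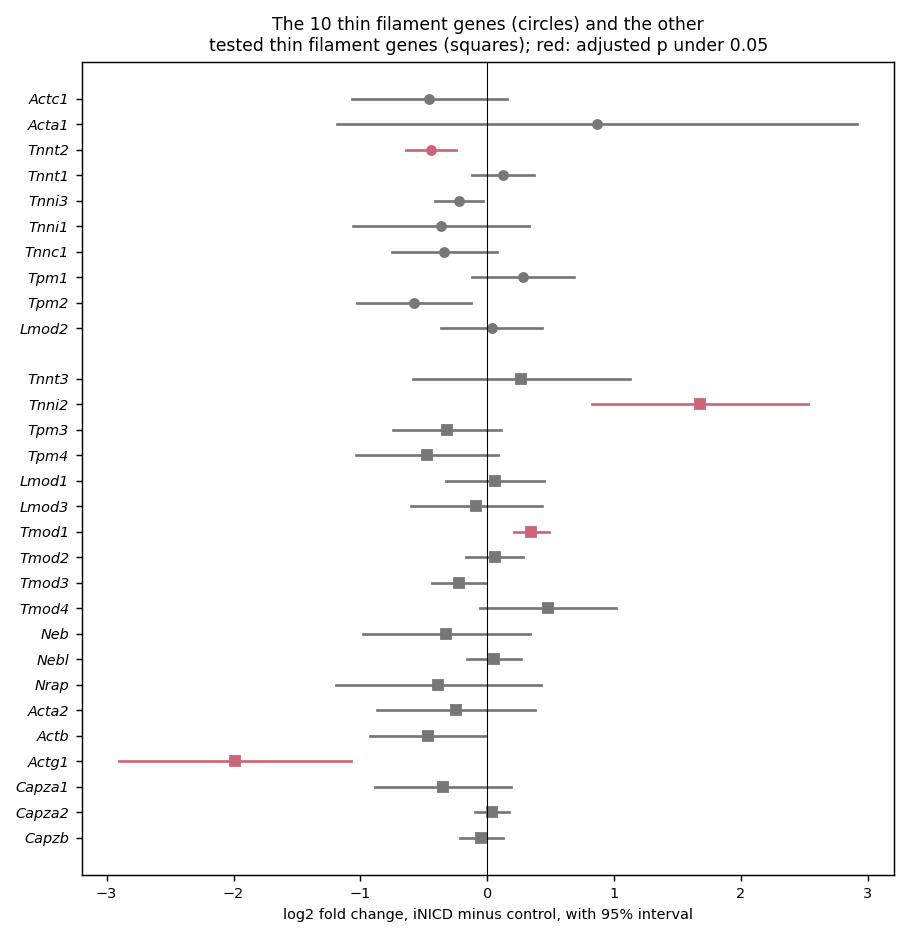
Log2 fold change (iNICD minus control, horizontal axis) with its 95% interval for the 10 thin filament genes (circles, upper block) and for the 19 other tested thin filament genes (squares, lower block), from edgeR's quasi-likelihood fit on 6 libraries per group. Red marks an adjusted p under 0.05: *Tnnt2* at -0.44 among the members, and *Tnni2*, *Tmod1* and *Actg1* among the others.

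*Tnnt2*, which encodes cardiac troponin T, was the member that fell. The control libraries had 8171 to 10538 normalized CPM (median 9287) and the iNICD libraries 5951 to 7534 (median 6853), so that every iNICD library lay below every control. Of all tested genes, 1.25% had all iNICD libraries below all controls. The mean was 9283 ± 924 in controls and 6823 ± 564 in iNICD libraries (SD, 6 libraries each), for a log2 fold change of -0.44 ± 0.091 (SE; 95% interval -0.64 to -0.25; edgeR adjusted p = 0.0153), or a level that fell by 26.5%. The gene spans chr1:135836354-135852260 on the plus strand of GRCm38, and 0.123% of the 50-base words of its transcripts also occur in another gene. It passed in each of the 12 fits that left out 1 library, with log2 fold changes from -0.49 to -0.40. With females alone the log2 fold change was -0.47 and the adjusted p 0.0640 in 4 control and 3 iNICD libraries.

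In whole LA tissue, fewer CMs and less *Tnnt2* RNA per CM cannot be told apart. The summed level of the 6 atrial CM markers was 67287 to 77242 normalized CPM in controls and 42662 to 51141 in iNICD libraries, with *Myl7*, *Myl4*, *Sln* and *Nppa* called lower and *Myh6* and *Bmp10* not called. The 7 fibroblast markers summed to 2789 to 4036 in controls and 2887 to 4688 in iNICD libraries, the 6 endothelial markers to 738 to 1035 and 681 to 816, and none of either list was called. The part of cell composition in the *Tnnt2* result was not tested.

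*Tnni3*, cardiac troponin I, had 3053 to 3741 normalized CPM in controls (median 3430) and 2464 to 3228 in iNICD libraries (median 2976). The groups overlapped, with 3 iNICD libraries below all controls. The means were 3399 ± 234 and 2912 ± 325 (SD, 6 libraries each), a log2 fold change of -0.22 (SE 0.088, 95% interval -0.41 to -0.03) that did not pass (edgeR adjusted p = 0.202). *Tnni3* shares 86 exon bases, 4.17% of its exons, with *Dnaaf3* on the same strand, so reads there cannot be assigned to one gene.

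*Tnnc1*, the calcium-binding troponin C of heart and slow muscle, had 947 to 1648 normalized CPM in controls (median 1217) and 602 to 1372 in iNICD libraries (median 1013). Control 2 was the highest and iNICD 2 the lowest, and the groups overlapped. The log2 fold change was -0.34 (SE 0.19, 95% interval -0.75 to 0.08, edgeR adjusted p = 0.390), and it was -0.22 without iNICD 2 (adjusted p = 0.556).

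The difference in *Tnnt2* was set against those of its partners in the complex within each library, a comparison chosen after the values were seen. There were 2.73 ± 0.169 counts of *Tnnt2* per count of *Tnni3* in controls and 2.36 ± 0.300 in iNICD libraries (SD, 6 libraries each). The log2 difference of this ratio was -0.21 (two-sided exact permutation p = 0.0303, 0.0606 adjusted over 6 ratios), and 4 of 6 iNICD libraries lay below all controls. For *Tnnt2* per count of *Tnnc1* the ratio was 7.53 ± 1.98 and 7.14 ± 1.96, a log2 difference of -0.08 (exact permutation p = 0.760, adjusted p = 0.912). A larger change of *Tnnt2* than of *Tnni3* or *Tnnc1* was therefore not shown.

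**Figure D2:**
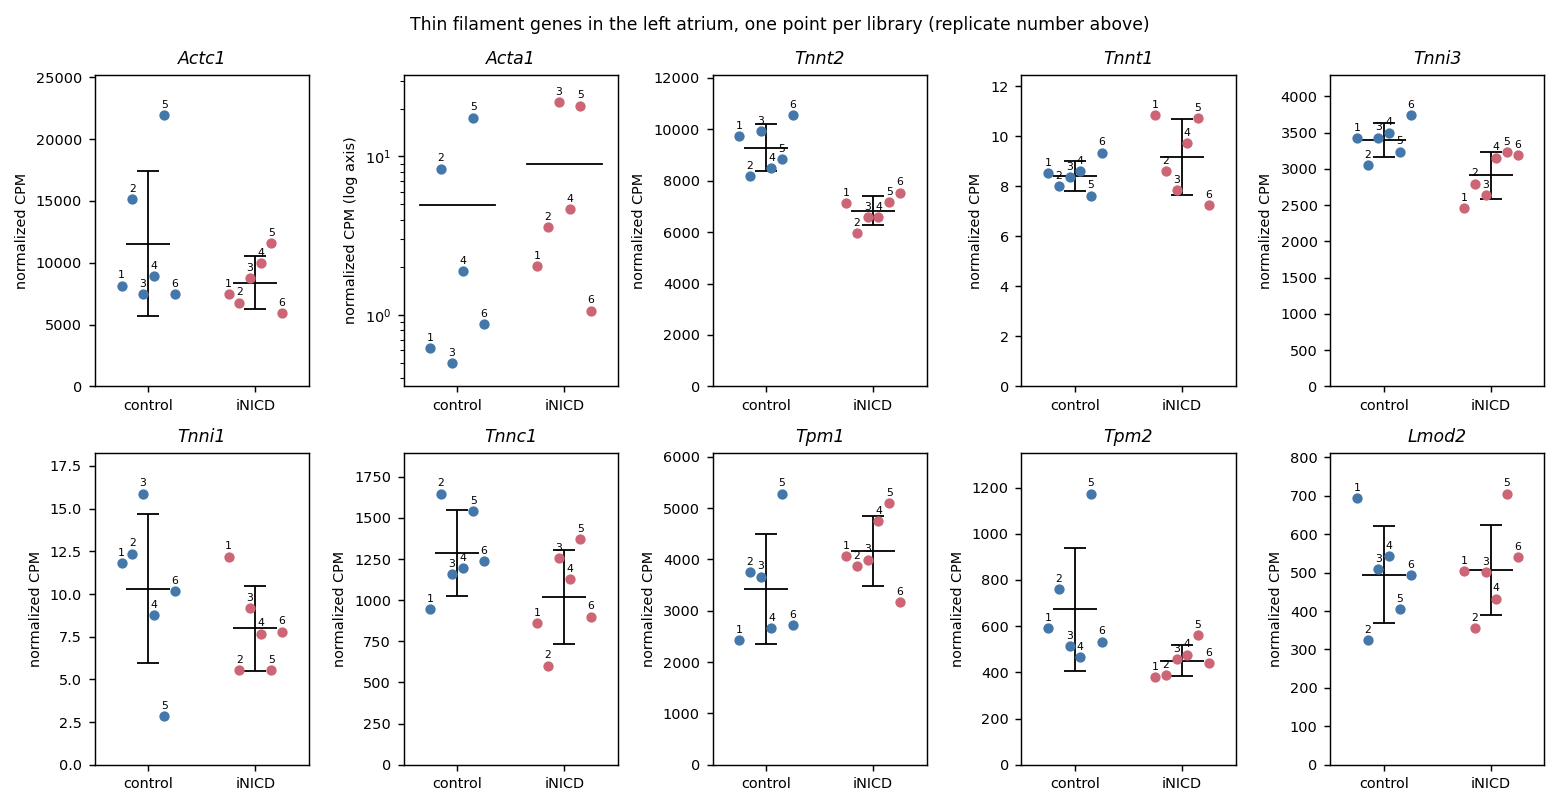
Normalized CPM (vertical axes, a log axis for *Acta1*) of the 10 thin filament genes in 6 control (blue) and 6 iNICD (red) libraries, with the replicate number above each point, the group mean as a horizontal bar and the SD as whiskers (mean alone for *Acta1*). The *Tnnt2* points do not overlap between the groups, and control 5 is the highest control for *Actc1*, *Acta1*, *Tpm1* and *Tpm2*.

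The isoforms of slow skeletal muscle were low in both groups. *Tnnt1*, slow skeletal troponin T, had 7.63 to 9.35 normalized CPM in controls (median 8.44) and 7.26 to 10.8 in iNICD libraries (median 9.17), with 163 to 267 counts per library. The groups overlapped, with 3 iNICD libraries above all controls and 1 below. Its log2 fold change was 0.12 (SE 0.11, 95% interval -0.12 to 0.37, edgeR adjusted p = 0.606), and it ranged from 0.071 without iNICD 1 to 0.18 without iNICD 6.

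*Tnni1*, the fetal troponin I, had 2.86 to 15.9 normalized CPM in controls (median 10.99) and 5.56 to 12.2 in iNICD libraries (median 7.74). The lowest of all 12 libraries was control 5, with 61 counts. The log2 fold change was -0.37 (SE 0.32, 95% interval -1.06 to 0.33, edgeR adjusted p = 0.590), and ranged from -0.56 without control 5 to -0.20 without control 3. No iNICD library lay above all controls, and a gain of the fetal troponin I was not detected.

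Both troponin pairs are neighbours in the genome. *Tnni1* and *Tnnt2* lie 25364 bases apart on chromosome 1 with *Lad1* between them, and *Tnnt1* and *Tnni3* lie 1922 bases apart on chromosome 7 with no gene tested between them. Within each pair one gene is of the adult heart and one of slow muscle. Of the 4 genes, *Tnnt2* alone was called. *Lad1*, a gene of the basement membrane zone named here for its place, had a log2 fold change of -0.63 (SE 0.23, edgeR adjusted p = 0.159), and no neighbour of any member outside the members was called.

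Within each library, *Tnnt1* was compared with *Tnnt2* as slow skeletal against cardiac troponin T. The counts are per gene, so splice forms of *Tnnt2* were summed and a shift among them would not be seen. The ratio was 0.0842 to 0.101 *Tnnt1* counts per 100 *Tnnt2* counts in controls (median 0.0881) and 0.0964 to 0.152 in iNICD libraries (median 0.146). All but 1 of the iNICD libraries, iNICD 6, lay above all controls. The mean rose from 0.0910 ± 0.00699 to 0.135 ± 0.0225 (SD, 6 libraries each), a log2 difference of 0.55 (two-sided exact permutation p = 0.00649, 0.0130 adjusted over the 4 planned ratios). In females alone it was 0.58 and did not pass after adjustment (exact permutation p = 0.0286, adjusted p = 0.114, n = 4 and 3). With libraries paired by title number the difference also did not pass after adjustment (exact sign-flip p = 0.03125). The skeletal isoform stayed a trace beside the cardiac one, and of the 2 genes *Tnnt2* was the one called on its own level.

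*Tnni1* per 100 counts of *Tnni3* was 0.0881 to 0.463 in controls (median 0.308) and 0.172 to 0.495 in iNICD libraries (median 0.244). The means of 0.304 ± 0.132 and 0.284 ± 0.120 gave a log2 difference of -0.02 (exact permutation p = 0.961, adjusted p = 0.961). The groups covered much the same range, and the sign of the difference changed with the library left out.

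**Figure D3:**
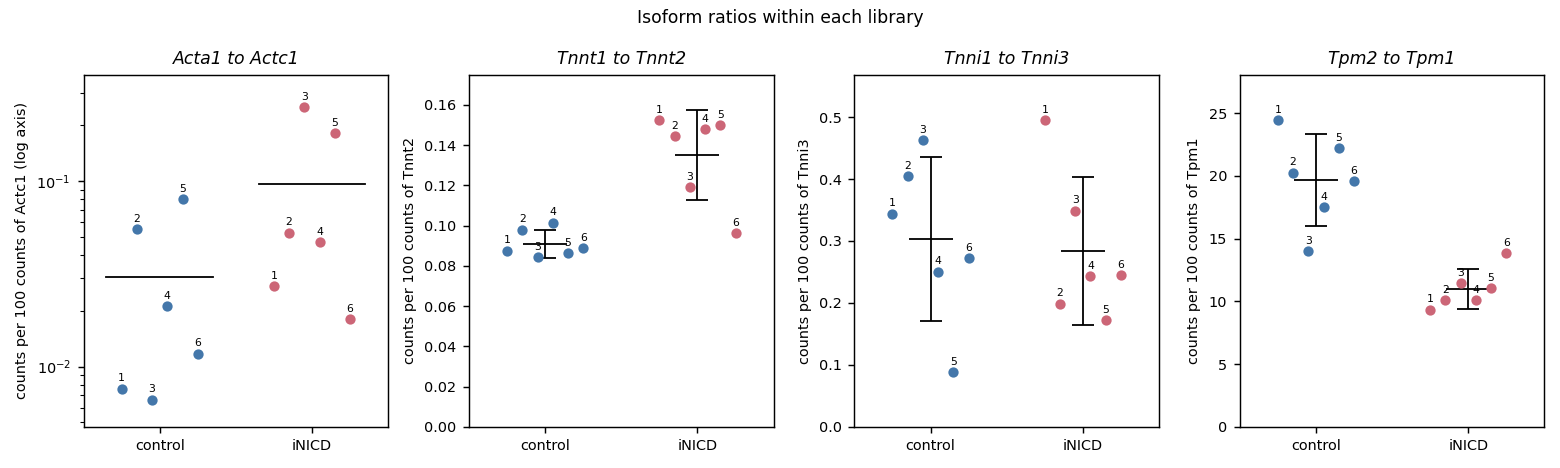
Counts of the gene of the skeletal or fetal isoform per 100 counts of the gene of the main cardiac isoform in each library (vertical axes, a log axis for *Acta1* to *Actc1*), for 6 control (blue) and 6 iNICD (red) libraries, with the replicate number above each point, the group mean as a bar and the SD as whiskers (mean alone on the log axis). All 6 iNICD libraries lie below all 6 controls for *Tpm2* to *Tpm1*, and 5 of 6 lie above all controls for *Tnnt1* to *Tnnt2*.

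Tropomyosin showed the clearest shift between isoforms. *Tpm2* per 100 counts of *Tpm1* was 13.97 to 24.4 in controls (median 19.9) and 9.34 to 13.83 in iNICD libraries (median 10.6), so that all 6 iNICD libraries lay below all 6 controls. The gap between the groups was narrow, since control 3 and iNICD 6 were next to each other. The mean fell from 19.7 ± 3.64 to 10.97 ± 1.59 (SD, 6 libraries each), a log2 difference of -0.83, or 0.562-fold (two-sided exact permutation p = 0.00216, the lowest value open to 2 groups of 6; 0.00866 adjusted over the 4 planned ratios). Per length the ratio was 43.8% ± 8.12 in controls and 24.5% ± 3.56 in iNICD libraries. It passed with each library left out in turn, at log2 differences from -0.93 to -0.76. With libraries paired by title number it did not pass after adjustment (exact sign-flip p = 0.03125). The ratio does not depend on the scaling between libraries. In females alone the log2 difference was -0.86 and did not pass (exact permutation p = 0.0571, adjusted p = 0.114, n = 4 and 3).

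Neither tropomyosin passed on its own. *Tpm2*, β-tropomyosin, had 466 to 1174 normalized CPM in controls (median 563) and 380 to 563 in iNICD libraries (median 449), and 4 iNICD libraries lay below all controls. Its log2 fold change was -0.58 (SE 0.21, 95% interval -1.03 to -0.13, edgeR adjusted p = 0.159), and -0.35 without control 5, which held the highest value. *Tpm1*, α-tropomyosin, had 2431 to 5283 in controls (median 3195) and 3173 to 5100 in iNICD libraries (median 4032), with a log2 fold change of 0.28 (SE 0.19, 95% interval -0.12 to 0.68, edgeR adjusted p = 0.465). Without control 5 that value was 0.45. The 2 genes thus had fold changes of opposite sign, and in the controls both were highest in control 5, which left their ratio within the range of the other controls. *Tpm1* (chr9:67022590-67049406) and *Tpm2* (chr4:43514711-43523765), both on the minus strand, share no 50-base word with another gene. The counts are per gene, so splice forms of *Tpm1* made in muscle and in other cells were summed.

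Both actins varied widely from library to library. *Actc1*, cardiac α-actin, had 7484 to 21932 normalized CPM in controls (median 8550) and 5912 to 11560.0 in iNICD libraries (median 8095). Controls 5 and 2 were highest, at 21932 and 15142, while the other 4 controls lay between 7484 and 8946. The log2 fold change was -0.46 (SE 0.28, 95% interval -1.07 to 0.16, edgeR adjusted p = 0.435), and -0.17 without control 5.

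*Acta1*, skeletal α-actin, had 12 to 375 counts in controls and 26 to 600 in iNICD libraries, or 0.496 to 17.6 normalized CPM (median 1.39) and 1.07 to 21.9 (median 4.11). Over the 12 libraries its highest level was 44.1 times its lowest. The SD within groups was 1.89 on the log2 scale, at percentile 99.7 of all tested genes. The log2 fold change was 0.87 (SE 0.95, 95% interval -1.19 to 2.92, edgeR adjusted p = 0.678), and ranged from 0.38 without iNICD 3 to 1.86 without control 5. *Acta1* per 100 counts of *Actc1* was 0.0304 ± 0.0303 in controls and 0.0960 ± 0.0960 in iNICD libraries (SD, 6 libraries each), a log2 difference of 1.64 that did not pass (two-sided exact permutation p = 0.0909, adjusted p = 0.121). No difference in skeletal actin was detectable against this spread. Of its 50-base words, 2.02% also occur in other genes, among them *Actb*, and those of *Actc1* occur in no other gene.

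*Lmod2*, the leiomodin of heart muscle that lengthens thin filaments, had 324 to 695 normalized CPM in controls (median 501) and 355 to 706 in iNICD libraries (median 503). Both groups covered much the same range. Its log2 fold change was 0.03 (SE 0.18, 95% interval -0.37 to 0.43, edgeR adjusted p = 0.947).

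The members fell into groups by the libraries in which they stood high. In controls, control 5 was highest and control 2 second for *Actc1*, *Acta1*, *Tpm1* and *Tpm2*, and these libraries were the first 2 for *Tnnc1* in the other order. Control 5 was lowest for *Tnni1* and *Tnnt1*, and control 2 lowest for *Tnnt2*, *Tnni3* and *Lmod2*. Among iNICD libraries, iNICD 5 was highest for 6 of 10 members and among the first 2 for 9, whereas iNICD 2 and iNICD 6 were each lowest for 4. The heat map of deviations shows these patterns. *Tnnt2* and *Tnni3* varied little within groups, with SDs of 0.133 and 0.136 on the log2 scale (percentiles 22.4 and 23.8 of all tested genes), while *Actc1* at 0.522 and *Tnni1* at 0.680 lay at percentiles 88.8 and 94.0. The 7 smooth muscle markers summed to 1245 normalized CPM in control 5 and to at most 976 in the other controls, the endothelial markers to 1035 and at most 881, and the atrial CM markers to 77242 and at most 72099. The adipocyte markers were also highest there, at 9.97 and at most 9.67. Control 5 was not the highest control for the ventricular, skeletal muscle, fibroblast, immune, epicardial and Schwann cell lists. It was the lowest for the immune markers, at 229, and the Schwann cell markers, at 12.4. The part of cell composition in the levels of control 5 was not tested.

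**Figure D4:**
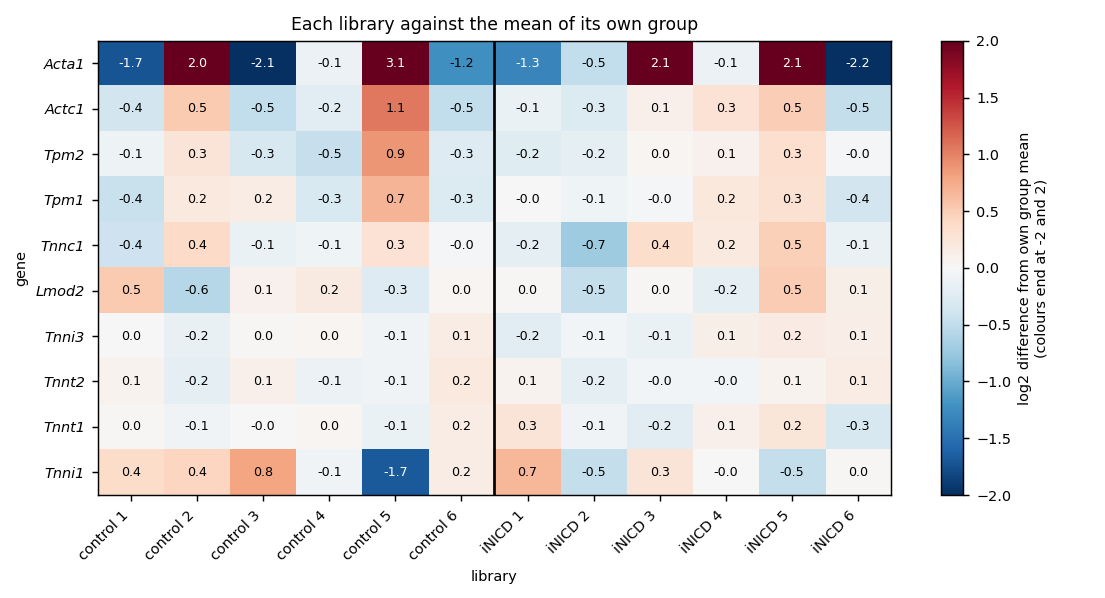
Log2 difference of each library (columns) from the mean of its own group for the 10 thin filament genes (rows), red above and blue below the mean, with colours that end at -2 and 2. Control 5 is at 1.1 for *Actc1*, 0.9 for *Tpm2*, 0.7 for *Tpm1* and -1.7 for *Tnni1*, and *Acta1* has the widest spread in both groups.

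Likeness was measured as the root mean square difference, over the 12 libraries, of log2 levels centred on each gene's mean, among about 9370 genes with a mean of at least 10 normalized CPM. It is a description that carries no test, and all genes share the 12 libraries and their depth. The genes most like *Tnnt2* were *Mien1* at 0.103 and *Tmc6* at 0.114, and those most like *Tnni3* were *Vdac3*, a mitochondrial outer membrane channel, at 0.0483 and *Sirt5*, a mitochondrial deacylase, at 0.0589. For *Actc1* they were *Ehd4* at 0.156 and *Flna*, the actin crosslinker filamin A, at 0.157. *Tpm2* was closest to *Ppa1* at 0.126 and *Kmt5a* at 0.132, and *Tpm1* to *Fads3* at 0.155 and *Vps37a* at 0.172. *Acta1* had no close neighbour; *Cnn1*, smooth muscle calponin, at 0.745 and the ryanodine receptor gene *Ryr3* at 0.789 came nearest. *Tnnc1* was nearest to *Psat1* at 0.167 and *Rpl15* at 0.173, and *Lmod2* to *Pltp* at 0.180 and *Fam53c* at 0.189. For *Tnnt1* the nearest were *Ap5m1* at 0.109 and *Gm44250* at 0.110, and for *Tnni1* they were *Nrep* at 0.292 and *Pdzrn4* at 0.297. *Acta1*, *Tnnt1* and *Tnni1* were below the minimum of 10 normalized CPM and so could not be named as neighbours. None of the other members was among the nearest 2 of another.

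In a fit with sex, genotype and their interaction, 0 of 10 members had an interaction at an adjusted p under 0.05, with adjusted p-values from 0.916 to 0.998 (edgeR's quasi-likelihood test), and 0 had one at an unadjusted p under 0.05. Of all tested genes, 0% and 3.7% did. *Tnnt2* had means of 9080 and 6553 normalized CPM in control and iNICD females and of 9689 and 7093 in males. For *Tnni3* these were 3354 and 2632 in females and 3491 and 3192 in males. With 2 male controls, control 5 among them, a difference between the sexes in these genes would have to be large to be seen. The fits with females alone also left out control 5.

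Other genes of the thin filament were taken from a list of 21, of which 19 were tested. Apart from *Tnni2*, which passed the filter through the iNICD group and is described with the fast skeletal troponins, 1 was higher in the iNICD LA, 1 was lower and 16 did not pass, beside 2.78% higher and 1.34% lower of all tested genes; the 16 were at log2 fold changes from -0.48 to 0.48, and the median over the list was -0.09. *Tmod1*, the tropomodulin that caps the pointed end in striated muscle, had 748 to 889 normalized CPM in controls (median 873) and 1015 to 1137 in iNICD libraries (median 1080), with no overlap, as for 2.58% of all tested genes. Its log2 fold change was 0.35 (SE 0.065, edgeR adjusted p = 0.00891), and the call was lost with the description number as a block (0.35, adjusted p = 0.0506) and in females only (0.33, adjusted p = 0.0925). Since 31.4% of the 50-base words of *Tmod1* transcripts also occur in other genes, *Tstd2* first, part of its count could belong elsewhere, depending on the counting. *Lmod3*, the leiomodin of skeletal muscle, had a log2 fold change of -0.09 (edgeR adjusted p = 0.880), which ranged from -0.27 without control 5 (adjusted p = 0.157) to -0.0058 without control 2. The other tropomodulin genes *Tmod2*, *Tmod3* and *Tmod4* were not called either.

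The fast skeletal troponins were near the floor of detection. *Tnni2*, fast skeletal troponin I, had 0.414 to 2.81 normalized CPM in controls (median 0.877) and 2.38 to 5.20 in iNICD libraries (median 3.00), from 10 to 128 counts. It was tested through the iNICD group, in which all 6 libraries were above 1 CPM. On the normalized scale 1 of 6 controls was above 1 CPM. Control 4, at 0.988 there, was just above 1 CPM on the scale of the filter, which does not use TMM. *Tnni2* was not tested when more than 1 CPM was required in all libraries, so its call is given as a description. Its log2 fold change was 1.68 (SE 0.39, edgeR adjusted p = 0.0312), with 4 iNICD libraries above all controls; of the 12 fits that left out 1 library it passed in 4, those without control 5 (2.19), iNICD 2, iNICD 3 or iNICD 6, and adjusted p-values in the other 8 were 0.0507 to 0.0753. *Tnnt3*, fast skeletal troponin T, had a log2 fold change of 0.27 (edgeR adjusted p = 0.769), which ranged from 0.11 without control 6 (adjusted p = 0.897) to 0.86 without control 5 (adjusted p = 0.0416) and passed in 1 of the 12 fits that left out 1 library. *Tnnc2*, fast skeletal troponin C, had 0 to 3 counts per library and was not tested. The 10 skeletal muscle markers, of which *Tnni2* and *Tnnt3* are part, summed to 641 to 948 normalized CPM in controls and 322 to 872 in iNICD libraries, most of it *Ckm*, which the heart also expresses. The defining markers *Myh4*, at 1 to 5 counts, and *Mylpf*, at 7 to 25, were near 0 in every library.

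*Actg1*, cytoplasmic γ-actin, was the gene of the list that fell, from 2.22 to 20.1 normalized CPM in controls (median 10.7) to 2.03 to 4.22 in iNICD libraries (median 2.47). Only 3 iNICD libraries lay below all controls, since control 6 was at 2.22. The log2 fold change was -1.99 (SE 0.42, edgeR adjusted p = 0.0183), and without iNICD 1 it did not pass (adjusted p = 0.0503). Nor did it pass with the replicate number as a block (edgeR adjusted p = 0.0662 by title and 0.0571 by description). Copies of *Actg1* elsewhere in the genome hold 37.4% of its 50-base words, so how reads shared between copies were counted bears on its level, which is uncertain. *Actb*, the other cytoplasmic actin, named after its values were seen, had a log2 fold change of -0.47 (edgeR adjusted p = 0.269).

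Genes of actin assembly and turnover, such as formins, cofilins and sarcomere chaperones, were taken from a list of 17. Of the 16 tested, 0 were called in edgeR's quasi-likelihood test, beside 2.78% higher and 1.34% lower of all tested genes, and 0 in DESeq2 or in the exact test of edgeR; shares this low leave 0 of 16 near the background. At an unadjusted p under 0.05, 0 were higher and 2 lower, beside 9.32% and 8.09% of all tested genes, and the median log2 fold change was -0.05. Among 13 tested regulators of muscle genes, 1 was higher and 0 lower, beside 2.78% and 1.34% of all tested genes, with a median log2 fold change of 0.09. At an unadjusted p under 0.05, 6 were higher and 2 lower, beside 9.32% and 8.09% of all tested genes. DESeq2 called 2 higher, *Tead1* and *Myocd*, and 1 lower, beside 4.54% and 3.28% of all tested genes, and the exact test of edgeR called 1 each way, beside 3.63% and 2.06%. *Tead1*, whose product binds the MCAT element, had 224 to 296 normalized CPM in controls (median 253) and 308 to 388 in iNICD libraries (median 348), with no overlap and a log2 fold change of 0.45 (SE 0.090, edgeR adjusted p = 0.0131); in females only it was 0.54 and did not pass (adjusted p = 0.0596). *Srf*, which encodes the factor of the CArG box and was named after its values were seen, had a log2 fold change of -0.86 (SE 0.24, edgeR adjusted p = 0.0629) and was called lower by DESeq2 and the exact test. Its control values ran from 97.0 to 321 normalized CPM (median 148), with the highest in control 5, and its iNICD values from 75.5 to 122 (median 92.5). The fold change of *Srf* without control 5 was not examined. The actins whose promoters carry that box had fold changes of opposite sign that did not pass.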

How the data were processed

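RNA of 12 LA was depleted of ribosomal RNA by the authors, made into libraries with the TruSeq RNA v2 kit and sequenced as single-end reads, which the methods call stranded. The authors deposited raw read counts per gene name, without normalization, and a length in bases per name. Per the labels, cutadapt, STAR 2.4.2a and featureCounts (Subread) with edgeR were used on mm10; the methods also describe TopHat2 with HTSeq, and the table does not name its route or strand setting.

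Groups, replicate numbers and sex came from titles and descriptions. The 13541 names above 1 CPM in 6 or more libraries were TMM-normalized and compared with the two-sided quasi-likelihood test of edgeR 4.0.16 (R 4.3.3), Benjamini-Hochberg adjustment over all of them and a threshold of 0.05. The F statistic gave the standard errors. Normalized CPM are counts relative to the TMM-scaled library total, and levels per kilobase use the deposited length. Ratios were log2 of counts plus 0.5 of 2 genes in a library, compared by exact permutation over all 924 assignments. On simulated counts for the comparison of iNICD with control, 13417 genes with 195 changed, the test recovered 83.8% of 2-fold and 97.9% of 4-fold changes, with 4.84% of calls false. Positions, shared words of 50 bases and exon overlaps are from GENCODE M21 (GRCm38), and promoters from RefSeq (GRCm38.p6; all 10 genes matched).

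The members and gene lists were chosen with earlier results of these data known. Named are all 10 members; of the lists, each gene called, with *Tnnt3*, *Tnni2*, *Tnnc2*, *Tmod1* and *Lmod3* whatever their result; the 2 genes most like each member; and *Notch1*. Replicates were no copies of each other (chi-square per gene 16.7 or more). Alternatives were DESeq2 1.42.0, edgeR's exact test, RLE normalization, other filters, no mitochondrial genes, sex as a covariate, females alone, a replicate block and each library left out. RA libraries were not analysed here.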

Additional observations from a re-analysis of the deposited data

Results flagged for a closer look

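Of 48 groups of 6 libraries examined for a single distant library by Dixon's ratio, 3 had one, where chance gives 2.4, and all 3 were control 5. *Lmod3*, the leiomodin of skeletal muscle, stood at 13.6 normalized CPM in control 5 and at 39.4 to 51.2 in the other controls. *Tnni2*, fast skeletal troponin I, stood there at 2.81 and in the other controls at 0.414 to 0.988. *Tnnt3*, fast skeletal troponin T, stood there at 5.29 and in the other controls at 0.833 to 1.84. Control 5 was thus high for both fast troponins and low for *Lmod3*, and none of the 10 members was distant by this measure in either group.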

How the results depend on the processing

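*Tnnt2* was the one member called lower under every alternative but females only, where 0 members were called. It passed in 9 of 10 alternatives and in each of 12 fits without 1 library (adjusted p 0.00954 to 0.0407). Fits without 1 library gave 273 to 495 higher and 92 to 304 lower genes over the table (highest without control 5), and 0 members higher and 1 lower. On the thin filament list, with *Tnni2* set aside, *Tmod1* was higher in each of the 12 fits and *Tnnt3* in the fit without control 5, and 0 to 1 genes were lower. DESeq2 called 615 higher and 444 lower genes and the exact test 279 lower. On that list *Tmod1* was still higher with more than 1 CPM required in all libraries. With the description number as a block and with females only, *Tmod1* was not called (edgeR adjusted p 0.0506 and 0.0925). The 1 gene above the threshold there was *Tnni2*, whose call is given only as a description. With the replicate block, by title or description number, 0 genes of that list were lower, since *Actg1* missed the threshold (adjusted p 0.0662 and 0.0571), and 332 or 285 genes were higher over the table and 136 lower under either. Whether the numbers pair the libraries was not settled, since differently numbered libraries were not compared. Same-numbered libraries correlated at -0.153 to 0.372 by title, with 2 of 6 below 0 (mean 0.121). By description they correlated at -0.107 to 0.372, with 1 of 6 below 0 (mean 0.138). Paired by title, the replicate block gave log2 differences of 0.55 for *Tnnt1* to *Tnnt2* and -0.83 for *Tpm2* to *Tpm1*, both at an exact sign-flip p of 0.03125 (adjusted 0.0625), the smallest that 6 pairs allow. Neither ratio passed after adjustment in this pairing. In females the differences were 0.58 and -0.86 (exact permutation p = 0.0286, the smallest that 4 against 3 allow, and 0.0571; adjusted p 0.114 for both). Without 1 library the ratios ranged from 0.51 to 0.65 for *Tnnt1* to *Tnnt2* and from -0.93 to -0.76 for *Tpm2* to *Tpm1*, which passed in 12 of 12, from 1.24 to 2.04 for *Acta1* to *Actc1*, from -0.35 to 0.13 for *Tnni1* to *Tnni3*, from -0.27 to -0.18 for *Tnnt2* to *Tnni3* (passing in 2, without control 4 and without iNICD 1) and from -0.19 to 0.022 for *Tnnt2* to *Tnnc1*. *Lmod2* changed sign in females (-0.19) and between -0.085 and 0.15 without 1 library, and *Lmod3* with sex as a covariate (0.025). Whether depth limits the calls of genes with low counts, such as *Tnni2*, *Tnnt3* and *Acta1*, was not tested. Causes were not tested. Another scaling moved the median over all genes by less than 0.1 on the log2 scale.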
